A study of Rattus norvegicus with 6 samples.

Results

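The genes described here are 10 genes of glucocorticoid action, taken by symbol from a table of 18825 genes measured in wounds of diabetic rats. They are the receptor gene Nr3c1, the enzymes Hsd11b1 and Hsd11b2, and the receptor targets Fkbp5, Rasd1, Klf9, Sgk1, Dusp1, Tsc22d3 and Per1. All 10 were in the table and all 10 passed the filter on low counts, as did 14427 genes in all. The set was drawn up with the difference between the groups in these libraries already known, so its values by group are a description and carry no test of their own.

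Full-thickness wounds were made in the back skin of male Sprague–Dawley rats. The animals of both groups had been made diabetic with a fat- and sugar-rich diet and streptozotocin, which kills insulin-producing beta cells. The 3 control libraries come from wounds left untreated. The 3 DST-MNs libraries come from wounds given microneedles with spheroids of dental pulp stem cells, regulated by spermidine, a polyamine, and by the growth factor TGF-β3. Neither group here is a wound with empty microneedles, and the labels give no age, no day or hour of collection, no statement on steroid or anaesthetic use and no species for the stem cells. The libraries of a group are labelled biological replicates.

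Glucocorticoids, corticosterone in rats, enter cells and bind the glucocorticoid receptor, which waits in the cytoplasm with heat shock proteins and immunophilins. The bound receptor moves to the nucleus, switches on targets at response elements in DNA and holds back many inflammatory genes. The enzyme made from Hsd11b1 regenerates active hormone from its inert keto form, and that from Hsd11b2 inactivates it. Skin carries this system in fibroblasts, keratinocytes and immune cells, and excess hormone is known for slowing wound closure.

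Promoter sequence was available for 8 of the 10 genes, all but Hsd11b1 and Hsd11b2, in 13 windows of 250 bases before an annotated start (RefSeq, rat build GRCr8). The deposited counts were made on another build, so these coordinates serve only to place the sequences. The palindromic response element of the receptor (AGAACA and TGTTCT, 3 bases apart) and its half-site (AGAACA, which the former contains), searched on both strands, were in none of the 13 windows, against 0.012% and 17.5% of 33469 such windows of all genes. The half-site of the cyclic AMP response element (TGACG, either strand, which lies within the full element TGACGTCA) was in 4 of the 13 windows and in 18.2% of all. The 4 belonged to Rasd1 (chr10:45267683-45267932, minus strand), Klf9 (chr1:230126396-230126645, plus strand), Dusp1 (chr10:17184603-17184852, plus strand) and the third start of Tsc22d3 (chrX:109010035-109010284, minus strand). They are shown with Fkbp5 (chr20:6543556-6543805, minus strand), which has none, to set genes that differed between the groups beside one, Tsc22d3, whose groups overlapped. Each is 5′ to 3′ on the strand of the gene, ending 1 base before the start, and capitals mark TGACG or its complement.
Rasd1: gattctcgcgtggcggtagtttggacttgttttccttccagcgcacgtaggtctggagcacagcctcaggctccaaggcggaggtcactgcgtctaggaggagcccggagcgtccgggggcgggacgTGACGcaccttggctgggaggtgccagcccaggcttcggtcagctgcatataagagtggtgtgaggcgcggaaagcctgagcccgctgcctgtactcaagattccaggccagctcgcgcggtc
Klf9: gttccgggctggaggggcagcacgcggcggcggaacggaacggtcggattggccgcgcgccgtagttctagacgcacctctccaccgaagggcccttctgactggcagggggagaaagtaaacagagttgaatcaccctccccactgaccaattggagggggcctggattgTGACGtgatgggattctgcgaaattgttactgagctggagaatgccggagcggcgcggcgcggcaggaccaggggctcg
Dusp1: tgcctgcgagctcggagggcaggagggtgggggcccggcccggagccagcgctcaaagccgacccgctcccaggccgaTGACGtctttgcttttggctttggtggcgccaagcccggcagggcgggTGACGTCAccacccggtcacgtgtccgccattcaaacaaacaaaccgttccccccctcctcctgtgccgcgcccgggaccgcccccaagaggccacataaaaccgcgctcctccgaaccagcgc
Tsc22d3: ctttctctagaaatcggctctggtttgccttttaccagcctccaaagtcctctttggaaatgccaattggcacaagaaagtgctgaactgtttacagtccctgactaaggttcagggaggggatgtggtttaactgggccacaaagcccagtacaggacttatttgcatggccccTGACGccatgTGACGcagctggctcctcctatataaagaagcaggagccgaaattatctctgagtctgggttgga
Fkbp5: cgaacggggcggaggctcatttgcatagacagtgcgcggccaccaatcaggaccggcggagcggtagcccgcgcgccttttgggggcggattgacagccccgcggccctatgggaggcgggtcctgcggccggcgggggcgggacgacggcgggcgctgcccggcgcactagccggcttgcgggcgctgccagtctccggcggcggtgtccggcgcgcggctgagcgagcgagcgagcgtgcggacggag

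The single TGACG of Rasd1 began 123 bases before the start and that of Klf9 began 79 bases before it. Dusp1 held the full TGACGTCA, which 1.59% of all windows held, from base 124 to base 117 before its start, and another TGACG at base 172. The E-box CACGTG was found in Dusp1 only (5.59% of all windows) and the AP-1 letters TGANTCA in Klf9 only (6.34%). Tsc22d3 had matches beginning 75 and 65 bases before the start shown. So TGACG was present in 3 genes whose groups did not overlap and in 1, Tsc22d3, whose groups did, and Fkbp5 and the 3 windows of Sgk1 had no match to any of these motifs. Nor had the windows of Nr3c1 and Per1, whose groups overlapped, or the other windows of Tsc22d3. These are matches of letters in a short window and do not locate any bound factor. At 0.012% of all windows the receptor's palindrome is so rare that its absence from 13 says nothing about these genes. Sites outside the windows were not searched.

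Rasd1, Fkbp5, Klf9, Sgk1 and Dusp1 were lower in each treated library than in any control, by 1.58- to 3.45-fold. Tsc22d3 and Per1 overlapped between the groups, and so did the receptor gene and Hsd11b1. Hsd11b2, a weakly detected gene, was higher. In all, 6 of the 10 genes had groups that did not overlap, against 22.9% of all genes tested. In the fit across all genes 2 of the 10, Rasd1 and Fkbp5, passed the threshold, both lower, against 0.776% of all genes in either direction and 0.118% as lower (edgeR's quasi-likelihood test, with p-values adjusted by Benjamini-Hochberg and a threshold of 0.05). As the set was chosen on this contrast, nothing is read from either share. The median log2 change of the 10 was -0.52 and that of all genes tested was 0.00.

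**Figure D1:**
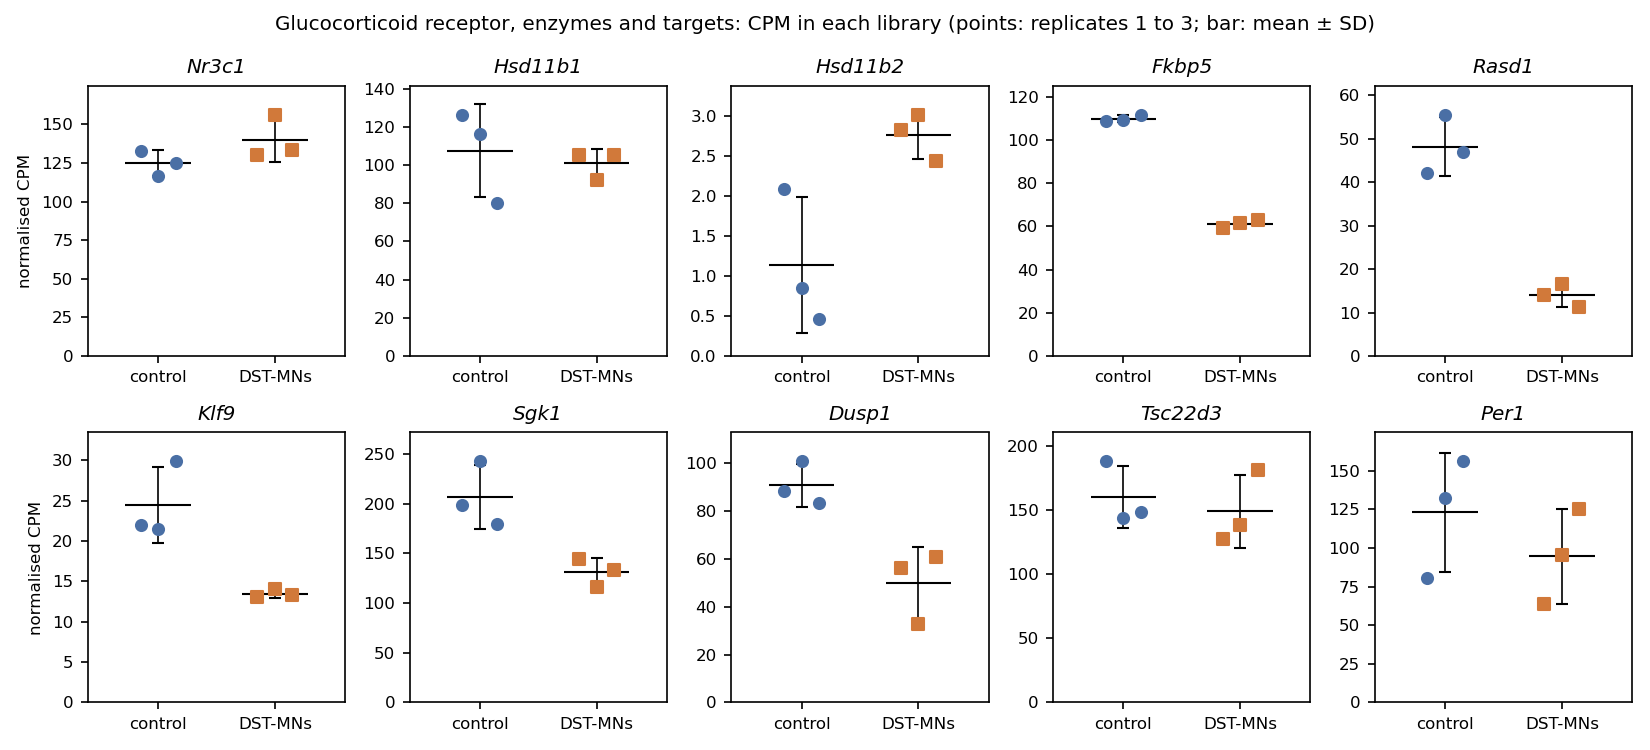
Normalised CPM (y axis, from 0) of each gene in the 3 control libraries (circles) and the 3 DST-MNs libraries (squares), replicates 1 to 3 from left to right; the line and whiskers are the mean and SD. The circles lie above the squares for Fkbp5, Rasd1, Klf9, Sgk1 and Dusp1, below them for Hsd11b2, and overlap them for the other 4 genes.

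Levels below are CPM, library-scaled counts with TMM factors, unless TPM, which also divides by gene length, is named. Changes are log2 of treated over control with their standard error (SE). Wound tissue is a mix of cells, so fewer cells of a type and less RNA per cell cannot be told apart in any of these values.

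Nr3c1 (gene ID 24413) encodes the receptor itself. It stood at 133, 116 and 125 CPM in controls 1, 2 and 3 and at 130, 156 and 133 CPM in DST-MNs 1, 2 and 3. The groups overlapped, with a log2 change of 0.16 (SE 0.12) and a 95% interval of -0.12 to 0.45. That interval spans both directions and leaves room for a rise of up to 0.45 on the log2 scale.

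Hsd11b1 (25116), the reductase that regenerates corticosterone, stood at 126, 116 and 79.9 CPM in the controls and at 105, 92.1 and 105 CPM after treatment. Control 3 was the lowest of the 6 libraries and the treated values lay among the controls. The log2 change was -0.09 (SE 0.19, 95% interval -0.53 to 0.35). It was 0.036 without control 1 and 0.022 with libraries scaled by total counts, a scaling that moved the median of all genes to 0.12. The estimated counts of Hsd11b1 were fractional in all 6 libraries, so its level is less certain than that of a gene with whole counts.

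Hsd11b2 (25117), the dehydrogenase that inactivates the hormone, had 27, 11 and 6 counts in the controls and 41, 41 and 31 in the treated libraries. In CPM these were 2.09, 0.854 and 0.467 against 2.82, 3.01 and 2.43. Each treated library was above each control, though control 1 came close to DST-MNs 3. The log2 change was 1.27 (SE 0.53, 95% interval 0.00 to 2.54), or 2.04 without control 1 and 0.90 without control 3. At such counts the precision is poor. Keratinocyte markers (8 genes, Krt15 at 0 in at least 1 library) summed to 20.2 to 238 CPM in controls and 366 to 4867 after treatment, and sebaceous gland markers (8 genes, with Awat1, Awat2, Elovl3, Mc5r and Cyp2b12 at 0 in at least 1 library) to 23.9 to 98.7 and 735 to 801 CPM. Their part in the rise of Hsd11b2 was not tested.

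The ratio of Hsd11b1 to Hsd11b2, on the TPM scale, was 58.1, 120 and 121 in controls 1, 2 and 3. After treatment it was 28.6, 22.7 and 29.4. The reductase transcript was thus the more abundant of the pair in all 6 libraries, and the ratio was lower in each treated library than in any control. Hsd11b1 itself overlapped between the groups, so this separation restates that of Hsd11b2, which rests on 6 to 41 counts.

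Fkbp5 (361810) encodes the immunophilin FKBP51, a receptor-induced gene whose product lowers the affinity of the receptor for hormone. Its levels were 109, 109 and 112 CPM in the controls and 59.3, 61.6 and 63.1 CPM after treatment. No value of one group came near the other. The means were 110 ± 1.5 and 61.3 ± 1.93 CPM (SD, n = 3), a log2 change of -0.84 (SE 0.09), which is 1.79-fold lower. With 1 library left out the change stayed between -0.86 and -0.83. The call was kept without control 1 and lost without any other single library.

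Rasd1 (64455) encodes a small Ras-like GTPase, first known as a dexamethasone-induced gene. It stood at 42.1, 55.5 and 46.9 CPM in the controls and at 14.0, 16.7 and 11.2 CPM after treatment. The lowest control was far above the highest treated library. The log2 change of -1.79 (SE 0.19), 3.45-fold lower, was the widest of the 10 genes. It ran from -1.92 to -1.65 with 1 library left out. The call was lost without control 2, control 3, DST-MNs 1 or DST-MNs 3 and kept without the other two.

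Klf9 (117560), a zinc finger repressor induced early by the receptor, stood at 22.0, 21.4 and 29.9 CPM in the controls and at 13.1, 14.0 and 13.3 CPM after treatment. Control 3 was high among the controls while the treated libraries agreed closely. Its log2 change was -0.86 (SE 0.17), or -0.69 without control 3.

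Sgk1 (29517), a kinase of ion transport and survival that corticosteroids, serum and osmotic stress induce, stood at 199, 242 and 180 CPM in the controls and at 144, 116 and 133 CPM after treatment. The groups did not overlap and control 2 was the highest. This gave a log2 change of -0.66 (SE 0.16).

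Dusp1 (114856), a phosphatase that switches off MAP kinases, stood at 88.3, 101 and 83.1 CPM in the controls and at 56.1, 32.6 and 60.6 CPM after treatment. DST-MNs 2 was the lowest by a wide margin. The log2 change was -0.87 (SE 0.24), or -0.63 without that library. Klf9, Sgk1 and Dusp1 missed the threshold in the fit across all genes, whereas DESeq2 placed all 3 below it with Rasd1 and Fkbp5. DESeq2 called 7.06% of all genes, and 2.72% as lower.

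Tsc22d3 (83514) encodes GILZ, a leucine zipper protein through which glucocorticoids restrain inflammation. It stood at 188, 144 and 149 CPM in the controls and at 127, 139 and 181 CPM after treatment. The highest value of each group, in control 1 and DST-MNs 3, lay well above the rest, and the groups overlapped. The log2 change was -0.10 (SE 0.18, 95% interval -0.53 to 0.32). It was 0.022 without control 1, 0.0061 with total-count scaling and 0.032 on the log2(TPM + 1) scale. The interval holds neither the change of Fkbp5 nor that of Rasd1.

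Per1 (287422), a clock repressor that the receptor also induces, stood at 80.8, 133 and 156 CPM in the controls and at 63.4, 95.2 and 125 CPM after treatment. Its spread within a group was wide, with an SD of 38.5 and 30.7 CPM, and the groups overlapped. Per1 had a log2 change of -0.38 (SE 0.32, 95% interval -1.14 to 0.38). The interval is wide enough to include both no change and the change of Fkbp5. Without DST-MNs 3 the change was -0.63 and without DST-MNs 1 it was -0.17.

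Ratios within a library need no scaling between libraries, and 3 were formed after the values were seen, as a description. The TPM ratio of Fkbp5 to Tsc22d3 was 0.298, 0.394 and 0.393 in the controls and 0.243, 0.232 and 0.181 after treatment. These did not overlap, though control 1 lay close to DST-MNs 1. The ratio of Rasd1 to Fkbp5 was 0.898, 1.15 and 0.965 in the controls and 0.515, 0.605 and 0.362 after treatment. Here too the groups did not overlap. The ratio of Klf9 to Per1 was 0.845, 0.473 and 0.553 in the controls and 0.566, 0.461 and 0.323 after treatment. Those groups overlapped.

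Per gene length, Tsc22d3 and Sgk1 were the most abundant of the 10 in the controls, both at a mean of 118 TPM (SD 14.4 and 16.8, n = 3). Hsd11b1 (72.4 ± 23.7 TPM) and Dusp1 (68.7 ± 6.10) followed and overlapped. Rasd1 (42.3 ± 6.03 TPM) and Fkbp5 (42.1 ± 2.53) were level with each other. Then came Nr3c1 (25.7 ± 1.72 TPM), Per1 (21.5 ± 8.02) and Klf9 (12.5 ± 2.90), with overlap between neighbours, and last Hsd11b2 (0.873 ± 0.628). In the treated wounds Tsc22d3 (121 ± 14.6 TPM) stood clear of Sgk1 (83.1 ± 12.1). Rasd1 (12.9 ± 3.61 TPM) was there below Fkbp5 (26.1 ± 1.04) and Nr3c1 (31.9 ± 3.88), without overlap with either, and overlapped Per1 (17.6 ± 3.88).

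**Figure D2:**
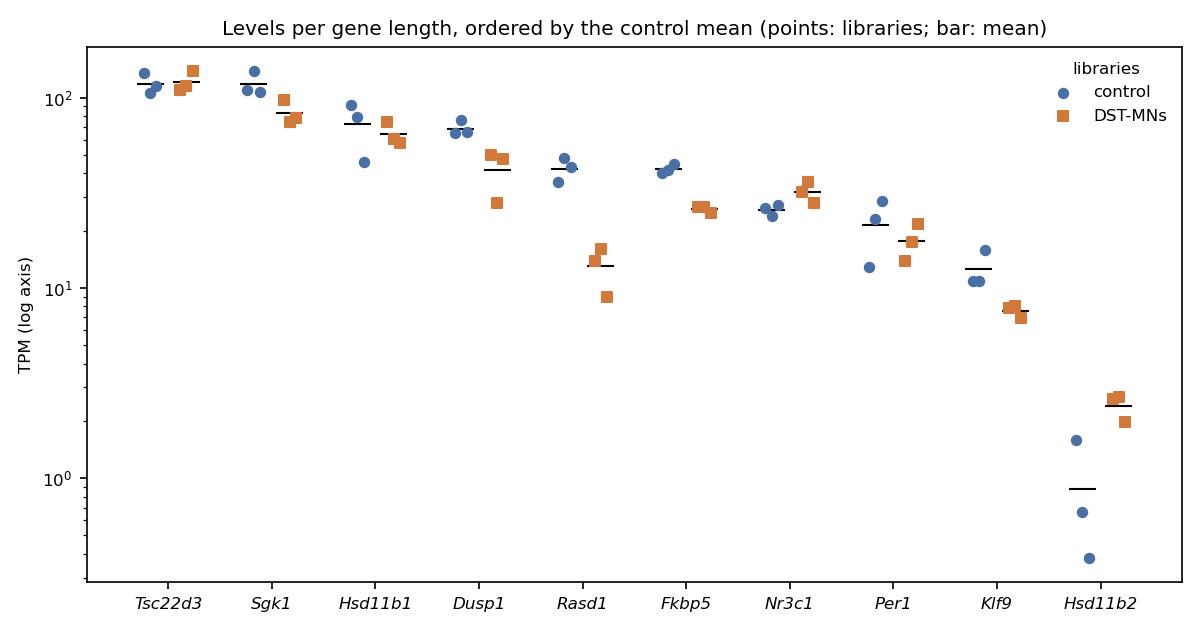
TPM on a log axis for the 10 genes in order of the control mean, with a point per library and a bar at the group mean (circles control, squares DST-MNs). Rasd1 moves from 42.3 to 12.9 TPM between the groups, while Tsc22d3 stays at 118 and 121 TPM.

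Markers of other cell types were summed in the same libraries. Fibroblast markers (8 genes, none at 0) summed to 79702 to 115864 CPM in controls and 68011 to 91069 CPM after treatment, and macrophage markers summed to 3349 to 4330 CPM in controls and 3129 to 4567 CPM after treatment, so both overlapped (10 macrophage genes, with Marco at 0 in at least 1 library). Neutrophil markers (206 to 511 against 159 to 516 CPM), adipocyte markers (636 to 814 against 763 to 958 CPM) and lymphocyte markers (208 to 287 against 232 to 284 CPM), 8 genes each, overlapped as well. Such sums are carried by their most abundant genes. Gene by gene, 8 of 8 fibroblast markers had changes below 0 (median -0.38), as had 8 of 8 endothelial markers (median -0.37), and 7 of 7 adipocyte markers tested had changes above 0 (median 1.04). Endothelial markers (8 genes, none at 0) were lower in each treated library, at 907 to 1213 CPM against 1260 to 1438 CPM, and the part of these cell types in the lower targets was not tested. Skeletal muscle markers (8 genes, Ckm, Myh4 and Myh2 at 0 in at least 1 library) summed to 5772 CPM in control 1, 186 and 492 CPM in controls 2 and 3, and 3898 to 4890 CPM after treatment. The part of muscle in the values of the glucocorticoid genes, Fkbp5 included, was not tested.

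Lists of genes around the 10 were examined in the same fit, with 136 of their 146 genes tested. Of the chaperones, immunophilins and coregulators of the receptor, 20 of 20 were tested and 0 passed, with 2, both higher, at an unadjusted p below 0.05, where 9.80% of all genes were higher and 6.88% lower, and 0 called by DESeq2. Their median log2 change was 0.07, against 0.00 for all genes. The coactivators Ncoa1 and Ncoa2 showed log2 differences of 0.43 (SE 0.14, edgeR adjusted p = 0.206) and 0.27 (SE 0.10, edgeR adjusted p = 0.238). Nr3c2, the mineralocorticoid receptor, which binds corticosterone too, stood at 5.95, 3.96 and 5.44 CPM in controls and 5.92, 9.69 and 8.01 after treatment, with overlap (0.62 ± 0.28 on the log2 scale, SE, edgeR adjusted p = 0.336). The closest relatives of the 10 genes gave no call either. Of 18 tested, 0 passed with edgeR or DESeq2 and 1 was higher and 1 lower at an unadjusted p below 0.05, the latter being the MAP kinase phosphatase Dusp6 (-0.43 ± 0.12 on the log2 scale, SE, edgeR adjusted p = 0.177). Per3 was the higher one, and Tsc22d2, next by p, was at -0.33 (SE 0.14, edgeR adjusted p = 0.308).

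Of 16 genes in the table that make, carry or clear steroids, 11 were tested and 1 passed, Hsd3b2, against 0.658% of all genes that passed as higher. The list median was -0.04. Unadjusted p below 0.05 held for 3 higher and 3 lower, where all genes had 9.80% and 6.88%. DESeq2 called 3 higher and 1 lower, Srd5a1 and Cyp11b1 among them, against 626 and 392 of all 14427 genes. Hsd3b2, a 3-beta-hydroxysteroid dehydrogenase, had 1, 0 and 4 counts in the controls, most of them in control 3. In CPM it rose from 0.0773, 0 and 0.311 to 10.9, 12.0 and 11.4 after treatment (6.37 ± 0.68 on the log2 scale, SE, edgeR adjusted p = 0.0198). With so few control counts the size is rough, at 5.81 without control 2 and 7.89 without control 3. Its adjusted p ran from 0.0265 to 0.0892 with 1 library left out, and the call was lost without DST-MNs 1, DST-MNs 2 or DST-MNs 3. The sebaceous markers given above moved with it, and their part was not tested. Cyp11b1, whose enzyme makes corticosterone in its last step, was at 2.55, 6.52 and 3.89 CPM in controls and 0.344, 0.440 and 0.0785 after treatment (-3.85 ± 0.62 on the log2 scale, SE, edgeR adjusted p = 0.0559). It missed the threshold, with adjusted p from 0.0353 without control 1 to 0.195. Both genes have close copies and had fractional counts in some libraries, so their levels are uncertain. Srd5a1, a steroid 5-alpha-reductase, showed a log2 difference of 1.06 (SE 0.22, edgeR adjusted p = 0.105). The gene H6pd, which supplies the cofactor for Hsd11b1 and was singled out after its values were seen, was at 89.8, 83.1 and 89.5 CPM in controls and 60.1, 83.0 and 58.2 after treatment. DST-MNs 2 all but met the controls.

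Of 37 further genes known to be induced by glucocorticoids, 35 were tested. 2 fell, the haemoglobin receptor gene Cd163 of macrophages and the iron-scavenging lipocalin gene Lcn2, where 0.118% of all genes passed as lower. The median of the list was -0.13, with 16 changes above 0 and 19 below it. At an unadjusted p below 0.05 there were 12 lower and 1 higher, where all genes had 6.88% and 9.80%. DESeq2 called 10 lower and 1 higher, against 392 and 626 of all 14427 genes. The median was 0.04 without control 1 and on the log2(TPM + 1) scale. Cd163 was at 339, 264 and 287 CPM in controls and 82.9, 102 and 78.8 after treatment (-1.75 ± 0.16 on the log2 scale, SE, edgeR adjusted p = 0.0115), a drop of about the size of that of Rasd1. Its call was lost without DST-MNs 1 or DST-MNs 3, with adjusted p up to 0.0823. Lcn2 was at 145, 306 and 102 CPM in controls and 22.2, 17.3 and 14.9 after treatment (-3.35 ± 0.44 on the log2 scale, SE, edgeR adjusted p = 0.0283). It lost its call without any 1 treated library, with adjusted p up to 0.147. Cebpd, a transcription factor of the acute phase, showed a log2 difference of -1.34 (SE 0.25, edgeR adjusted p = 0.0809).

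**Figure D3:**
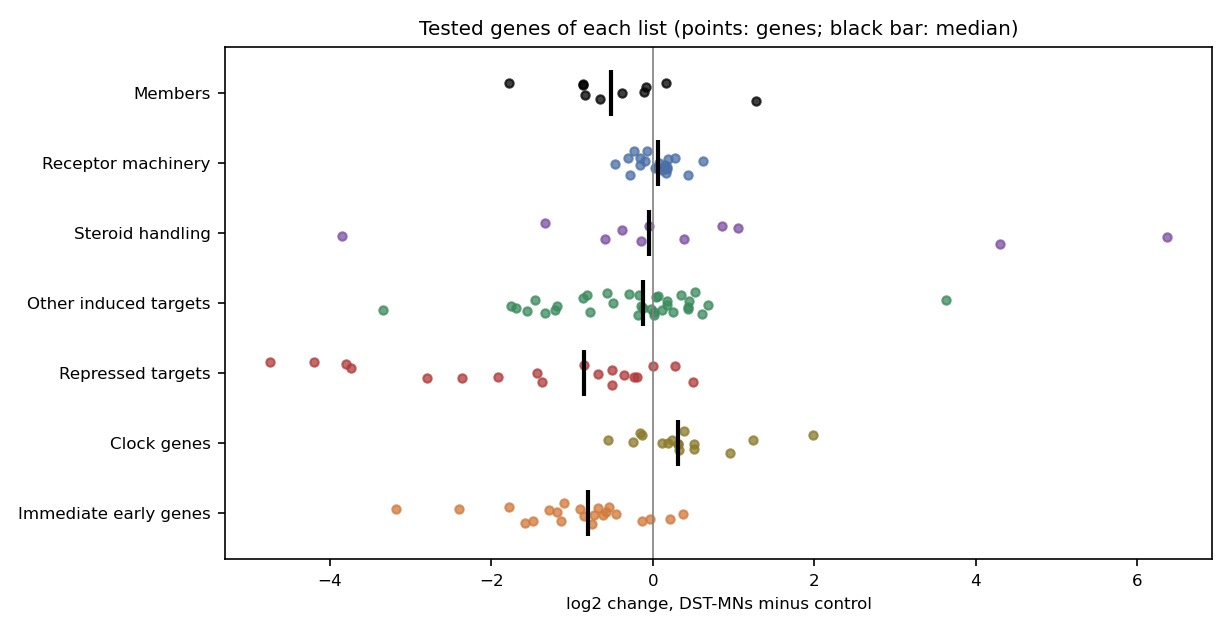
Log2 change (x axis, DST-MNs minus control) of each tested gene in the 10 described here and in 6 lists around them, with the median as a black bar. The medians are -0.52 for the 10, 0.07 for receptor machinery, -0.04 for steroid handling, -0.13 for other induced targets, -0.85 for repressed targets, 0.31 for clock genes and -0.80 for immediate early genes.

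Of the inflammatory and matrix genes that glucocorticoids are known to repress, 19 were tested. The median was -0.85, and 16 had changes below 0, as had 49.5% of all genes. With edgeR 0 passed the threshold and 7 were lower at an unadjusted p below 0.05, against 6.88% of all genes. DESeq2 called 6 as lower, against 2.72% of all genes. The smallest p belonged to the chemokine Ccl20 (-2.80 ± 0.53 on the log2 scale, SE, edgeR adjusted p = 0.0836). Cxcl1 and Il11 were at -3.80 (SE 0.81, edgeR adjusted p = 0.11) and -2.36 (SE 0.52, edgeR adjusted p = 0.116), and Cxcl1 reached 0.0266 without control 3. The median was -1.55 without DST-MNs 2, -1.28 without control 3 and -0.72 without DST-MNs 3.

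Rasd1, Sgk1, Dusp1, Klf9 and Per1 also respond within minutes to hours to growth factors, cyclic AMP and handling, as immediate early genes do. Of 22 such genes tested, 20 had changes below 0, against 49.5% of all genes, with a median of -0.80 (-0.54 without control 2). With edgeR 0 passed the threshold and 14 were lower at an unadjusted p below 0.05, against 6.88% of all genes. DESeq2 called 7 as lower, against 2.72% of all. Ier3, Zfp36 and Junb showed log2 differences of -1.49 (SE 0.28, edgeR adjusted p = 0.0823), -1.14 (SE 0.21, edgeR adjusted p = 0.0823) and -1.10 (SE 0.25, edgeR adjusted p = 0.128). Ier3 reached an edgeR adjusted p of 0.0366 without control 3. Control 2, the library with the highest Rasd1, Sgk1 and Dusp1, also had the highest Junb (343 CPM, against 291 and 175 in controls 1 and 3) and Ier3 (106 CPM, against 78.2 and 48.7). Without control 2 the log2 changes were -1.68 for Rasd1, -0.53 for Sgk1 and -0.79 for Dusp1. Klf9, Per1 and Fkbp5 were highest in control 3, with changes of -0.95, -0.33 and -0.85 without control 2. For Junb, Ier3 and Zfp36 the changes without control 2 were -0.89, -1.20 and -1.07. That of Zfp36 was smaller still in size without control 1, at -1.02, so it did not follow control 2 as the other named genes did. The part of handling or of other stimuli in the lower targets was not tested.

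Of 16 clock genes other than Per1, 12 had changes above 0, as had 7286 of all 14427 genes. With edgeR 1 passed the threshold, where 0.658% of all genes passed as higher. The median was 0.31, or 0.17 without DST-MNs 2 and 0.20 without control 2. Unadjusted p below 0.05 held for 3 higher and 0 lower, where all genes had 9.80% and 6.88%. DESeq2 called 2 higher and 0 lower, against 626 and 392 of all 14427 genes. The gene that passed, Hlf, a PAR-domain transcription factor of clock output, rose from 1.31, 1.55 and 1.63 CPM to 6.54, 5.94 and 5.34 CPM (1.98 ± 0.25 on the log2 scale, SE, edgeR adjusted p = 0.0281). Its adjusted p was 0.0707 with the replicate number as a block and up to 0.156 with 1 library left out. The call was kept without control 1 and lost without each of the others. With limma on log2(TPM + 1) the change of Hlf was 1.01 and its adjusted p was 0.113. Bhlhe41 and Per3 showed log2 differences of 1.24 (SE 0.25, edgeR adjusted p = 0.103) and 0.51 (SE 0.20, edgeR adjusted p = 0.283). Bhlhe41 reached 0.0417 without control 1 and 0.0474 with the block. Per1 and, singled out after its values were seen, Per2 were both lowest in the library numbered 1 of each group. Per2 was at 53.3, 74.5 and 76.4 CPM in controls and 54.2, 80.5 and 86.5 after treatment, close between the groups (log2 change 0.12, SE 0.22). The hour of collection, which sets clock genes and circulating corticosterone alike, is not in the labels, so its part was not tested.

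**Figure D4:**
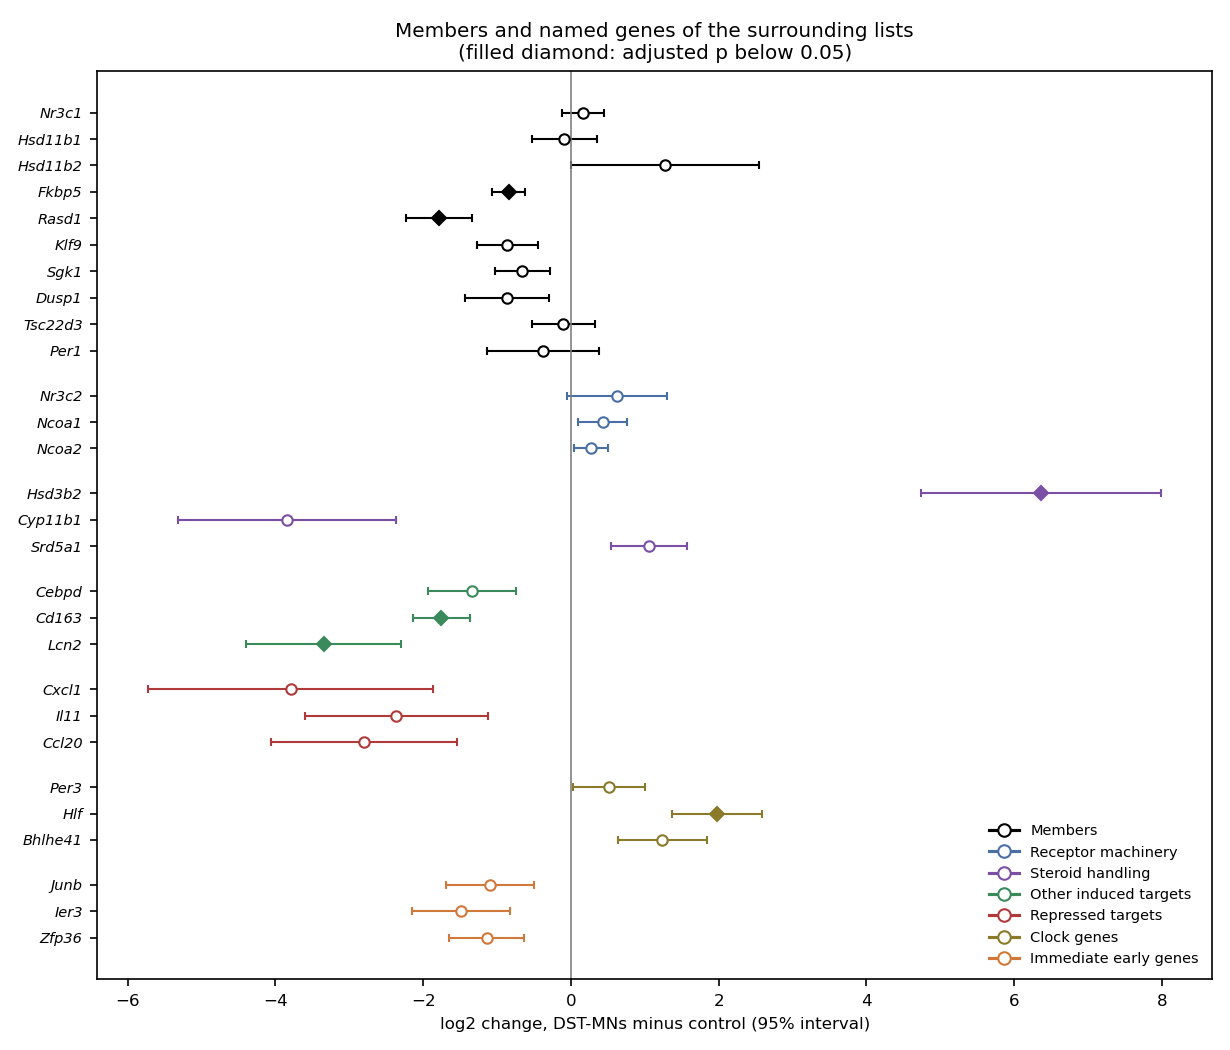
Log2 change (x axis, DST-MNs minus control) with its 95% interval for the 10 genes (black) ("Members") and the named genes of 6 lists around them, where a filled diamond marks an adjusted p below 0.05 in the fit over all genes. The intervals of Rasd1, Fkbp5, Klf9, Sgk1 and Dusp1 lie below 0 and those of Nr3c1, Hsd11b1, Tsc22d3 and Per1 include it, while that of Hsd11b2 begins at 0.00.

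The genes most like Rasd1 over the 6 libraries, by distance between log2 CPM profiles centred on each gene's mean, were Adm, Plod2, Slc39a14, Cd163 and Drd1, at distances of 0.52 to 0.58. Adm, which encodes the peptide hormone adrenomedullin, was at 34.1, 45.9 and 27.4 CPM in controls and 9.22, 12.8 and 10.2 after treatment. Slc39a14, a metal transporter gene, was at 278, 347 and 248 CPM and then 114, 138 and 85.4. The dopamine receptor gene Drd1 was scarce, at 3.17, 5.36 and 3.58 CPM and then 0.963, 1.83 and 0.707. Those nearest to Nr3c1 were Zfyve27, Crtc3, Arhgap17, Birc2 and Trim68, at 0.08 to 0.10. Of the latter 5, 0 passed the threshold with edgeR and 0 had an unadjusted p below 0.05, and their log2 changes were 0.12 to 0.19. Among those near Rasd1, Adm, Plod2 and Cd163 passed, at edgeR adjusted p of 0.0311, 0.0282 and 0.0115. Both sets were picked for likeness in these same libraries, so these results follow from that choice and add nothing on Rasd1 or Nr3c1.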

How the data were processed

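Per the labels' protocols, total RNA was taken up in TRIzol and paired-end mRNA libraries were run on a DNBSEQ-T7. The authors deposited 1 table with 4 values per gene and library. Its estimated counts, per the file headers read counts, are unscaled, with 90.5% to 91.4% whole. The deposited TPM, scaled by gene length and library, were used for levels between genes. The deposited FPKM and the deposited normalised counts, a signal scaled by the authors, were not tested. The build was mRatBN7.2 per the submitters' processing notes. Which aligner and counter were used is not given in the sources used here. Columns were matched by library name.

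Estimated counts were rounded, filtered with filterByExpr (minimum count 10), scaled with TMM and tested with the quasi-likelihood method of edgeR 4.0.16 in R 4.3.3 over 14427 genes, adjusting p-values by Benjamini-Hochberg, with 0.05 as the threshold. The SE is the log2 change over the square root of F. Library totals were 12545206 to 13818548 counts, and libraries of a group had a chi-square of 31.6 to 70.7 per degree of freedom against each other, far above counting noise, so none was a repeat. By this measure control 1 was closer to DST-MNs 2 (35.7) and DST-MNs 3 (44.0) than to control 2 (50.8) or control 3 (70.7). On simulated counts of this comparison (14271 genes) the test called 24 of 100 genes given a 2-fold change, 83 of 100 given a 4-fold change and 2 unchanged genes. The 10 genes, the 16 lists and the alternatives were chosen with earlier results of these data known. Of 226 list entries, 222 matched by symbol, 3 through RefSeq names and 1 not at all. Named beside the 10 were list genes past the threshold, the 3 smallest p of each list, and the 5 nearest to Rasd1 and to Nr3c1. Alternatives used DESeq2 1.42.0 and limma 3.58.1. Figures used matplotlib 3.10.9.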

Additional observations from a re-analysis of the deposited data

How the results depend on the processing

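The 112 genes called over the whole table became 38 with at least 10 counts in every library, 1018 with DESeq2, and 14 to 402 with 1 library left out. Of the 10 glucocorticoid genes, 2 were called, 5 with DESeq2, 1 with the replicate number as a block (Fkbp5 at an adjusted p of 0.0605, with the same log2 change of -0.84), 1 with limma on log2(TPM + 1) (Fkbp5 at 0.0554; genes averaging 1 TPM or more) and 0 to 2 with 1 library left out. For those counts over all genes, the 10 and the lists, the TPM test was added after seeing the data. The list genes called numbered 4 of 136 tested, or 30 with DESeq2, against 0.776% and 7.06% of all genes. With 1 library left out they numbered 0 to 8. The lists were chosen with earlier results of these data known, so nothing is read from these shares. The same replicate numbers correlated at -0.02, 0.10 and 0.11 after centring each gene within its group. Controls 2 and 3 correlated best with the treated library of their own number, and control 1 with DST-MNs 2. With so few libraries these values do not decide whether the numbers mark pairs. The block called 123 genes in all. Direction reversed for Hsd11b1 (0.022 with total counts, 0.036 without control 1 and -0.27 at the other end with 1 library left out) and Tsc22d3 (0.0061 with total counts, 0.032 on TPM, 0.022 without control 1 and -0.27 at the other end); the cause was not tested. The other 8 genes kept their direction under every alternative run, though Hsd11b2 was not tested with at least 10 counts in every library. Total counts and TPM each moved the median of all genes to 0.12, and relative to it both reversed genes stayed below 0 on those scales. Depth limits Hsd11b2, with 6 to 41 counts, most.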

Other observations

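Fkbp5 varied less between libraries of a group than random counting of reads would give on average. Its coefficient of variation was 1.36% in controls and 3.14% after treatment, where counting alone gives 2.66% and 3.46%. Among 4385 genes with a mean of at least 50 CPM, the median was 9.88% in controls and 13.2% after treatment, and 5 genes, Fkbp5 included, were at or below its values in both groups. With 3 libraries a group, such an SD is itself imprecise, and Fkbp5 was singled out after its values were seen. Klf9 was similarly even after treatment, at 3.69% against 7.39% from counting, but not in controls, at 19.3%. Per1 spread by 31.3% and 32.5%, and Hsd11b1 by 22.7% in controls and 7.55% after treatment.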
